A study of Mus musculus with 2 samples.

Results

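The Fc receptor genes of red pulp macrophages are 7 mouse genes: Fcgr1, Fcgr3, Fcgr4 and Fcer1g of the activating arm, the inhibitory Fcgr2b, the neonatal receptor gene Fcgrt, and Fcamr, whose product binds IgA and IgM. They were chosen by name, and every probe whose transcript accession belongs to 1 of them was taken. Each of the 7 genes had exactly 1 such probe, out of 39386 probes and 20642 named genes on the arrays. The arrays compared F4/80-positive, CD11b-low cells sorted from spleens of wild-type (WT) mice and of SIRPα-KO mice, which lack a myeloid inhibitory receptor for CD47. Each genotype had 1 array, for cells taken from 5 mice, and at which step the material of these mice was combined is not stated. In both groups red blood cells were lysed and globin transcripts were removed from the RNA. The sources used here do not give the strain, age or sex of the mice, nor which part of the gene was deleted.

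Fc receptors tie antibodies to the cells that act on them. In the red pulp of the spleen, macrophages use receptors for IgG to take up antibody-coated red blood cells and platelets. The activating receptors signal through an ITAM, a tyrosine motif that in the mouse lies on a separate chain, the FcRγ chain encoded by Fcer1g, while Fcgr2b carries its own inhibitory motif, the ITIM, and recruits the inositol lipid phosphatase encoded by Inpp5d. SIRPα restrains uptake of coated cells through protein tyrosine phosphatases, encoded by Ptpn6 and Ptpn11.

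With 1 array per genotype there was no test across samples, and no p-value is given. The size rule for calling a gene higher or lower was a 2-fold difference, 1 on the log2 scale. The normalised level was the log2 processed signal minus the 75th percentile of its array, and every difference was taken as SIRPα-KO label minus WT label. The error after ± combines the scanner software's signal errors of the compared spots on the log2 scale, so it covers the measurement of spots and not mice or pools. Signals of different probes depend on the probe, so no receptor's level was ranked against another's.

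The probe of the targeted gene did not bear out the label. Sirpa read 795 (WT) and 1006 (array labelled SIRPα-KO), a difference of 0.51 ± 0.20. Whether this probe lies inside the deletion is unknown here, and if it lies outside, it is no check of the label. Every direction below therefore rests on the labels alone.

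The array labelled SIRPα-KO had a higher Fcgr1 signal and lower signals of Fcgr2b, Fcgr3, Fcgr4 and Fcer1g. Fcgr1 was 2.35-fold higher, against 1.58-fold lower for Fcgr3, 1.70-fold lower for Fcgr4, 1.41-fold lower for Fcer1g and 1.34-fold lower for Fcgr2b. Of the 7 genes, 1 was thus at least 2-fold higher, where 3.11% of 15835 measured genes were. None of the 7 was at least 2-fold lower, a limit that 5.46% of measured genes passed. A single gene out of 7 gives no basis for reading the group as a whole against those shares.

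**Figure D1:**
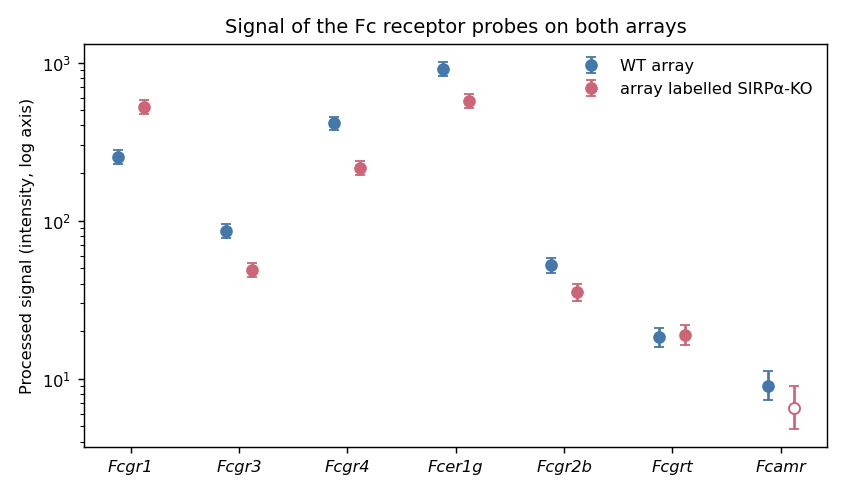
Processed signal (intensity, log axis) of the probe of each Fc receptor gene for the WT array and the array labelled SIRPα-KO. Error bars are the software's signal error, the Fcgr2b points are means of 9 and 10 spots, and the open point marks a probe not well above background. Within a gene the points lie apart for Fcgr1, with the WT array lower, and for Fcgr3, Fcgr4, Fcer1g and Fcgr2b, with the WT array higher.

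Fcgr1 encodes CD64, the high-affinity IgG receptor, and its surface protein is widely used to mark macrophages. Its probe, A_55_P2008740 for accession NM_010186, read 251 (WT) and 525 (labelled SIRPα-KO) in signal units. The normalised log2 levels were 1.33 and 2.56, a difference of 1.23 ± 0.20. This was 6.03 times its spot error and lay at percentile 98.4 of the differences of all measured genes. Genes in the same decile of mean signal had a median difference of -0.24, on the other side of 0. After normexp background correction, an alternative chosen after the data were seen, the Fcgr1 difference was 0.995, just under the 2-fold limit.

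Fcgr3 encodes CD16, a low-affinity activating receptor for IgG. Its probe, A_52_P408757 for NM_010188, read 86.4 (WT) and 48.7 (labelled SIRPα-KO). The log2 difference was -0.66 ± 0.21, or 3.09 times its spot error, at percentile 10.6 of all measured genes. After normexp the difference was -0.35.

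Fcgr4 encodes an activating receptor of intermediate affinity that binds IgG2a and IgG2b. Its probe, A_51_P181517 for NM_144559, read 412 (WT) and 216 (labelled SIRPα-KO). The log2 difference of -0.76 ± 0.20 was 3.72 times its spot error and the lowest of the 7 genes, at percentile 8.35 of all measured genes. The median of its signal decile was -0.24, on the same side of 0 but nearer to it.

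Fcer1g encodes the FcRγ chain, which the receptors encoded by Fcgr1, Fcgr3 and Fcgr4 need for surface expression and signalling. The signal of its probe, A_51_P405476 for NM_010185, was 908 (WT) and 572 (labelled SIRPα-KO). The log2 difference was -0.50 ± 0.20, at percentile 17.2. After quantile normalization it was -0.21, about the size of its spot error. The chain and Fcgr1 thus lay on opposite sides of 0, with differences 1.73 ± 0.29 apart on the log2 scale.

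Fcgr2b encodes the inhibitory IgG receptor CD32B. Its probe, A_51_P130095 for NM_001077189, was the only one of the 7 printed at several places, on 10 spots per array. On the WT array 9 unflagged spots read between 37.1 and 60.3, with a median of 55.8. On the array labelled SIRPα-KO 10 spots read between 21.4 and 51.6, with a median of 35.8. Before scaling the ranges overlapped, since 4 of the 10 spots on that array reached the lowest WT spot and 6 lay below it. The mean log2 levels were -0.96 and -1.38, with an SD between spots of 0.28 (9 spots) and 0.36 (10 spots). Their difference was -0.42 ± 0.23, or 1.83 times the spot error. That error is the one of a single spot on each array, although the levels are means over several spots.

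Spots at the same position on both arrays could be paired, because the arrays share 1 layout. At all 9 pairs without a flag the normalised level was lower on the array labelled SIRPα-KO, by -0.12 to -1.29, with a median of -0.44 and an SD of 0.36. The remaining position was flagged as an outlier on the WT array, with a signal of 102 against 51.6 on the other, and would have added a difference of -0.81. Keeping that spot gave a difference of -0.52 for Fcgr2b, and leaving the position out on both arrays gave -0.49. These spots repeat the measurement of 1 pool per genotype and are not biological replicates.

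**Figure D2:**
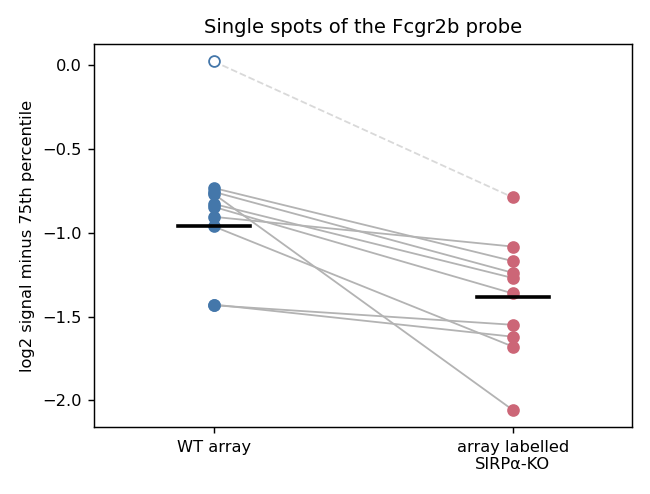
Normalised log2 level (log2 signal after scaling to the array's 75th percentile) of the single spots of the Fcgr2b probe, with lines joining spots at the same position of both arrays. The open circle and dashed line mark the spot flagged on the WT array, and black bars are the means of unflagged spots, -0.96 and -1.38. All 9 solid lines slope down, while the levels of the arrays overlap.

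Fcgrt encodes FcRn, which pairs with β2-microglobulin and rescues IgG from breakdown in endosomes. Its probe, A_51_P161890 for NM_010189, read 18.3 (WT) and 18.9 (labelled SIRPα-KO). The log2 difference of 0.21 ± 0.29 was smaller than its spot error. B2m, the gene of its partner chain, read 911 and 789, a difference of -0.04 ± 0.20.

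Fcamr was at the edge of detection. Its probe, A_55_P2288825 for NM_001170632, read 9.04 on the WT array, well above background, and 6.57 on the other array, not well above it. The lowest signal well above background was 7.92 (WT) and 9.09 (labelled SIRPα-KO). On the normalised scale that limit lay above the WT value, so no fold is given and the difference was set to 0.

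**Figure D3:**
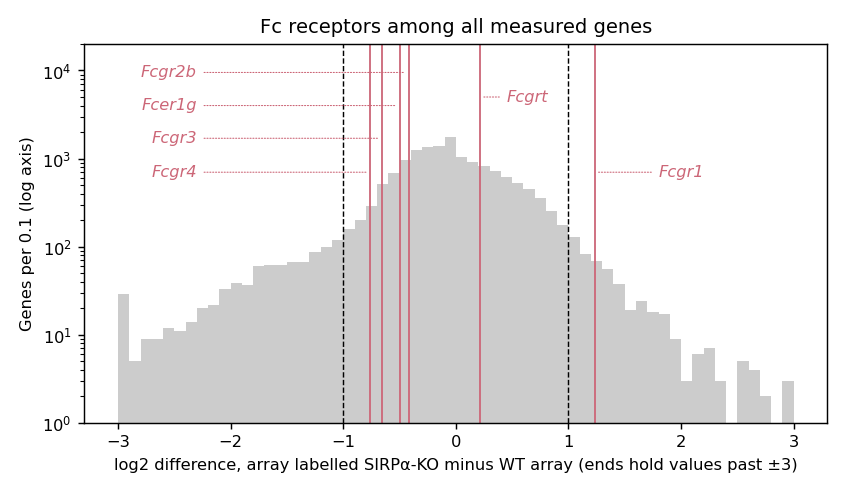
Number of genes (log axis) per 0.1 of log2 difference between the array labelled SIRPα-KO and the WT array, over 15835 measured genes, with red lines at 6 Fc receptor genes and dashed lines at 2-fold. Fcgr1 lies beyond the 2-fold line at 1.23, and Fcgr2b, Fcer1g, Fcgr3 and Fcgr4 lie between -0.42 and -0.76. Fcamr, set to 0, is not drawn.

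The balance of activating against inhibitory receptors was examined by subtracting the Fcgr2b difference from that of each activating gene, a quantity that no constant scaling of an array can move. For Fcgr1 the result was 1.65 ± 0.31, so the ratio of Fcgr1 to Fcgr2b signal was 3.14 times as large on the array labelled SIRPα-KO as on the WT array. For Fcgr3 it was -0.24 ± 0.31, for Fcgr4 -0.34 ± 0.31 and for Fcer1g -0.08 ± 0.31. Fcgr1 stood above Fcgr2b by far more than the error. Fcgr3 and Fcer1g lay within that error of Fcgr2b, and Fcgr4 exceeded it by little. For Fcgr2b the error is that of a single spot on each array, so it is wide for a mean of several spots. The 9 paired Fcgr2b positions are spots already averaged in the Fcgr2b value, so they show its spread and add no separate support. Of these, 9 lay below the Fcgr1 difference, 7 lay above that of Fcgr3, 8 above that of Fcgr4 and 6 above that of Fcer1g. The activating genes thus did not share a direction relative to Fcgr2b at this spot error: Fcgr1 lay above it and Fcgr3, Fcgr4 and Fcer1g lay near or below it.

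Under the other processing settings the directions of Fcgr1, Fcgr3, Fcgr4, Fcer1g, Fcgr2b and Fcgrt were the same in all 11 alternatives. Part of this was fixed in advance. Each gene has 1 probe, so taking the mean of its probes or the dimmest probe returned the main value. Keeping dim probes could not change these 6 genes either, as all were well above background on both arrays. The settings on flagged spots could change only Fcgr2b. The Fcgr1 difference ranged from 0.995 to 1.41, Fcgr3 from -0.83 to -0.35 and Fcgr4 from -0.93 to -0.62. Fcer1g ranged from -0.67 to -0.21, Fcgr2b from -0.59 to -0.15 and Fcgrt from 0.04 to 0.30. In the authors' deposited table the log2 values of Fcgr1 were 7.84 for WT and 9.23 for SIRPα-KO, and those of Fcgr4 were 8.52 and 7.89.

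**Figure D4:**
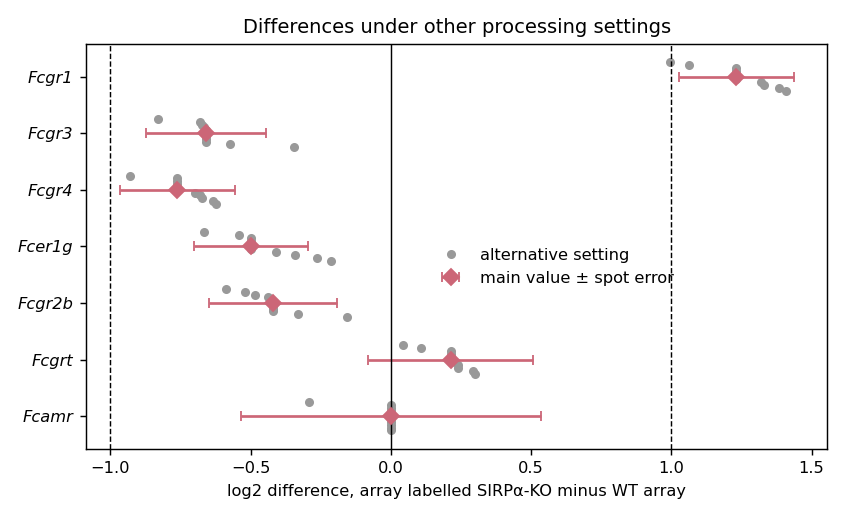
Log2 difference (SIRPα-KO label minus WT label) of each Fc receptor gene as reported (diamonds, with the spot error) and under 11 alternative settings (grey points, spread vertically for visibility). Dashed lines mark 2-fold. Fcgr1 stays at or above 0.995, and Fcgr3, Fcgr4, Fcer1g and Fcgr2b stay below 0. Settings on the choice of probe and on dim probes could not move the 6 genes well above background on both arrays. The Fcamr value was set to 0 because 1 array was not well above background.

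The members that were lower share a stretch of chromosome 1 that the choice of genes did not use. In RefSeq order Fcgr2b, Fcgr4 and Fcgr3 are neighbours there, with Fcer1g further along, while Fcgr1 lies on chromosome 3, Fcgrt on chromosome 7 and Fcamr elsewhere on chromosome 1. All 4 members of that stretch were below 0, as were 56.9% of all measured genes. Among the 10 measured protein-coding genes between them and up to 3 genes on either side, 6 were above 0 and 4 below, with a median of 0.11. Nr1i3, a nuclear receptor gene, was past the 2-fold limit upwards (1.20 ± 0.26). Fcrla and Fcrlb, Fc receptor-like genes beside Fcgr2b, differed by 0.17 ± 0.23 and -0.09 ± 0.21. The neighbouring genes were examined after the values were seen. Of 3 measured neighbours of Fcgr1, none was at least 2-fold apart, and their differences ran from -0.17 to 0.36.

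The sequences just before the gene starts are shown because they let Fcgr1 be set beside the genes on the other side of 0. Each is the 250 bases upstream of the RefSeq start in assembly GRCm38.p6, 5′ to 3′ on the strand of the gene. The arrays' own design names another build, so these positions serve the sequences only. Capitals mark 2 motifs on either strand: GAGGAA, the core bound by PU.1, the master transcription factor of macrophages, and TTCNNNGAA, the palindromic element bound by STAT factors. The windows are chr3:96293970-96294219 (minus strand) for Fcgr1, chr1:171059404-171059653 (minus strand) for Fcgr3, the first of 2 entries, chr1:171018676-171018925 (plus strand) for Fcgr4, chr1:170976072-170976321 (minus strand) for Fcgr2b and chr1:171234350-171234599 (minus strand) for Fcer1g.
Fcgr1: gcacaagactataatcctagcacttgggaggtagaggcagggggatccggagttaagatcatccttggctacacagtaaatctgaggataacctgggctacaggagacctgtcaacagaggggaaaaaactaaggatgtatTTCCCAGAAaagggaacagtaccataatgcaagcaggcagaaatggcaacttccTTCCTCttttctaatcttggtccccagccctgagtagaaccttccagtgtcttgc
Fcgr3: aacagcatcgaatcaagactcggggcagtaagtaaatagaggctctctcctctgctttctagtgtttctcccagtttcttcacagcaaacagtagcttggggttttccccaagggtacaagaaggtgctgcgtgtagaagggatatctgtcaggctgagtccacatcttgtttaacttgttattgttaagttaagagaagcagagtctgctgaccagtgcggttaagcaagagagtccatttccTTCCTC
Fcgr4: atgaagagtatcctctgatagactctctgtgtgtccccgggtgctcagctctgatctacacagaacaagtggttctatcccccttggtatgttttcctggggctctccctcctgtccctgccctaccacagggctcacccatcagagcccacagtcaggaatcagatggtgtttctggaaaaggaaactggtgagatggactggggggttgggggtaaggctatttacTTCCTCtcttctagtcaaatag
Fcgr2b: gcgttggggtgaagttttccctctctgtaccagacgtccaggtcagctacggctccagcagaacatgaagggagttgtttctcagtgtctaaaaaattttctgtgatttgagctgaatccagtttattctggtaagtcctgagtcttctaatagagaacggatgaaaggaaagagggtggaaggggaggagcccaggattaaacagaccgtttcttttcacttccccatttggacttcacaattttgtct
Fcer1g: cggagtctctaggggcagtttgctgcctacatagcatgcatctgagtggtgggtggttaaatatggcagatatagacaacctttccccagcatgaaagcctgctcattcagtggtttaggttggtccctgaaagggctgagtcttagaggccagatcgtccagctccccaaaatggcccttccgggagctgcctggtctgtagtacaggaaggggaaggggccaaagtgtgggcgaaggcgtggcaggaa

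GAGGAA, read here on the opposite strand as TTCCTC, was found in the windows of Fcgr1 (bases 55 to 50 before the start), Fcgr3 (6 to 1) and Fcgr4 (22 to 17), that is in all 3 genes of activating IgG-binding chains. It was also in the Fcamr window (35 to 30), in none of Fcgr2b, Fcer1g and Fcgrt, and it occurred in 23.3% of all 32851 promoter windows of that length. TTCNNNGAA was found in 1 of the 5 windows, that of Fcgr1, as TTCCCAGAA at bases 109 to 101 before the start, against 7.02% of all windows. The other motifs searched were an interferon-response pattern (GAAA, any 2 bases, GAAA) and TATAAA, the TATA box. The interferon-response pattern was in the Fcgr4 window at bases 73 to 64 and in 2.98% of all windows. TATAAA was in none of the 5 windows and in 12.4% of all. A match describes letters in a window and shows no binding, and factors bound there were not measured.

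Beyond the 7 genes, 4 lists of genes that work with Fc receptors were read in the same way. The activating signalling list had 17 measured genes of 18, of which 2 passed the 2-fold limit downwards and 0 upwards, beside 5.46% and 3.11% of all measured genes. Their median was -0.29, where all measured genes had -0.08, and it was -0.028 after normexp. Rac2, a GTPase that drives the actin and oxidase response to engulfed particles, read 1460 and 386, or 3.35-fold lower. It was read from 8 and 10 spots with SDs of 0.11 and 0.06 on the log2 scale, and its difference was -1.75 ± 0.20. Lcp2, the adaptor SLP-76, was 2.11-fold lower, from 27.9 to 11.7 (-1.08 ± 0.31), but differed by only -0.22 after normexp.

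Kinases of the ITAM pathway did not share a direction. These and the other pathway genes within the 2-fold limit are named for their role, after their values were seen. Syk, which docks on the phosphorylated ITAM, read 764 (WT) and 680 (labelled SIRPα-KO), a normalised difference of 0.00 ± 0.20. Of the Src-family kinases that phosphorylate it, Fgr differed by -0.93 ± 0.20, and Lyn read 18.8 against a value below the detection limit, or at least 1.84-fold lower. The exchange factor Vav1 differed by 0.74 ± 0.20, the phospholipase Plcg2 by 0.66 ± 0.20 and the kinase Btk by -0.78 ± 0.26. After normexp Btk differed by only -0.25. Further probes of Vav1 and of Btk were not well above background on either array. Pik3cd, the PI3-kinase subunit p110δ, differed by 0.68 ± 0.20 at its brightest probe and by -0.20 at the next, so its probes disagreed.

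Of 8 listed and measured genes of the inhibitory side, 2 passed the 2-fold limit upwards and 0 downwards, beside 3.11% and 5.46% of all measured genes. The median was 0.40, and 7 genes were above 0, of which 4 exceeded their own spot error and 3 (Inppl1, Dok1 and Dok2) did not. Dok3, an adaptor that restrains ITAM signals, read 19.0 and 42.6, or 2.52-fold higher (1.34 ± 0.25). Csk, the kinase that switches Src-family kinases off, read 48.1 and 94.9, or 2.22-fold higher (1.15 ± 0.21). After normexp neither passed the 2-fold limit, with 0.39 for Dok3 and 0.61 for Csk. Inpp5d, which encodes SHIP-1, the phosphatase that Fcgr2b recruits, read 58.2 and 79.0, a difference of 0.61 ± 0.21. The phosphatases of SIRPα lay on opposite sides of 0, Ptpn11 (SHP-2) at 0.58 ± 0.20 and Ptpn6 (SHP-1) at -0.63 ± 0.34, the latter with the larger error of a dim probe.

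**Figure D5:**
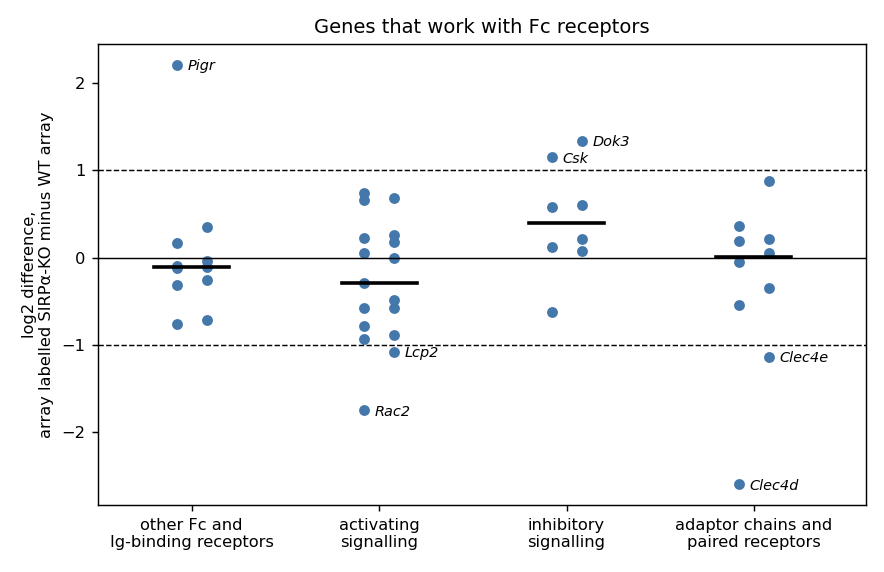
Log2 difference (SIRPα-KO label minus WT label) of every measured gene in 4 lists of genes that work with Fc receptors, each at its brightest probe. Black bars are list medians, dashed lines mark 2-fold and genes past it are named. The inhibitory list has a median of 0.40 and the activating list one of -0.29.

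Adaptor chains related to FcRγ and the receptors that pair with them were mixed, with 10 measured genes of 11 and a median of 0.00. Of these, 0 were at least 2-fold higher and 2 lower, beside 3.11% and 5.46% of all measured genes. Both lower genes encode C-type lectins: Clec4d, 6.05-fold lower with signals of 806 and 119 (-2.60 ± 0.21), and Clec4e, a receptor for fungal and mycobacterial lipids, 2.20-fold lower with 308 and 124 (-1.14 ± 0.21, and -0.96 after normexp). Of the adaptors themselves, Tyrobp (DAP12) differed by -0.05 ± 0.41, Hcst (DAP10) by 0.88 ± 0.20 and Cd247 (the CD3ζ chain) by -0.54 ± 0.27. Pirb, an ITIM receptor of the same family of paired receptors, differed by 0.36 ± 0.20.

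Other genes for proteins that bind immunoglobulin had 11 measured members of 13 and a median of -0.11. Of these, 1 was at least 2-fold higher and 0 lower, beside 3.11% and 5.46% of all measured genes. The higher gene was Pigr, the polymeric immunoglobulin receptor, which like the Fcamr product binds IgA and IgM. It read 7348 (WT) and 30191 (labelled SIRPα-KO), 4.62-fold higher (2.21 ± 0.20). A further Pigr probe was not well above background on either array, with signals of 6.53 and 2.20, so the probes of this gene disagreed on whether it was detected. The cytosolic antibody receptor gene Trim21 differed by -0.76 ± 0.21, and Fcer2a, the low-affinity IgE receptor gene, by -0.25 ± 0.20.

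Fc receptor transcripts occur in other spleen cells too, and a pool cannot tell fewer cells of a type from less RNA per cell. The markers of red pulp macrophages were mixed. Of 11 measured, 5 were above 0 and 6 below, with a median of -0.15. Of all measured genes 56.9% were below 0, with a median of -0.08. By the 2-fold limit 2 markers were higher and 0 lower, beside 3.11% and 5.46% of all measured genes. C1qc (1.11 ± 0.20) and Cd5l (1.46 ± 0.22) were the higher pair, but stood at 0.84 and 0.61 after normexp, and C1qc at 0.94 without scaling. C1qa and C1qb, which encode the other chains of the same complement protein, differed by -0.64 ± 0.47 (1 array not well above background) and -0.34 ± 0.21, and Cd163, the haemoglobin scavenger receptor gene, by -0.57 ± 0.24. Adgre1, which encodes F4/80, read 6830 and 10406 at its brightest probe (0.78 ± 0.20) but differed by -0.47 at a further probe. The summed marker signals, 14478 (WT) and 18134 (labelled SIRPα-KO), follow mainly that brightest probe. Mertk of that list was not well above background on either array.

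Markers of other cell types were summed in the same way, in signal units before scaling, and are given as WT and labelled SIRPα-KO. Neutrophil markers (8 of 10 measured, Mpo and Ngp at background) summed to 65187 and 64123, most of it from Elane with 45722 and 39299. Monocyte markers (4 of 7 measured, Ccr2 and Spn at background) summed to 12046 and 5972, mostly Nr4a1 with 11247 and 5379. NK cell markers (5 of 7 measured, Klrk1 and Klre1 at background) summed to 860 and 673. Summed signals were 2044 and 797 for B cells (6 of 8 measured), 2399 and 1070 for plasma cells (5 of 5), and 1409 and 633 for conventional dendritic cells (5 of 6). They were 15943 and 5137 for follicular dendritic and stromal cells (5 of 6), 1671 and 1191 for sinusoidal endothelium (5 of 6), and 340 and 262 for mast cells and basophils (4 of 5).

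Scaled to the 75th percentile as the Fc receptor genes were, 8 of these 9 sums were lower for the SIRPα-KO label than for WT, and that of neutrophils was higher by 0.15 on the log2 scale. List medians ran from -0.72 (plasma cells) to 0.07 (B cells). All measured genes had a median of -0.08, and 56.9% were below 0. Medians of neutrophils, of follicular dendritic and stromal cells, and of mast cells and basophils lay between -0.09 and -0.06. The sums rest on their brightest probes: the B cell list had a median difference of 0.07, with 3 genes above 0 and 3 below, and its lower sum came with 1 probe of Cr2. The genes at least 2-fold lower in these lists were S100a8 (-1.23), Cr2 (-2.07, but 0.31 at a further probe), Jchain (-2.78), Derl3 (-1.06), Ccl19 (-1.82, but 0.04 at a further probe), Emcn (-1.07), Flt3 (-1.07, and -2.25 at a further probe) and Hdc (at least 2.10-fold). Of all measured genes 5.46% were at least 2-fold lower. No gene of these lists was at least 2-fold higher, where 3.11% of all measured genes were. After normexp S100a8 stood at -0.52, Derl3 at -0.24, Emcn at -0.44 and Hdc at -0.23. The brightest Flt3 probe stood at -0.79 after quantile normalization. At their brightest probes these 5 genes thus did not keep the 2-fold limit. The part of these cell types in the differences of Fcgr2b, Fcgr3, Fcgr4 and Fcer1g was not tested.

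Other properties of the measurement were set beside the 7 genes. Unrelated spots within 10 rows and columns of a member's spot had median differences between -0.09 and -0.01. A median over many spots cannot show what happened at a single spot, so an effect of position was not tested. Median differences in the members' signal deciles ran from -0.24 to 0.00. The genes Fcgr2b and Fcgr3 encode closely similar extracellular parts, and whether their probes distinguish the transcripts was not tested, since no probe sequences were used here. Since 7 of 7 genes had a single probe, no member had a second probe as a check.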

How the data were processed

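Red pulp macrophages of WT and SIRPα-KO mice were measured on 1 array each (1 colour, both on 1 slide and in 1 scan). Per the file headers, the deposited scanner tables hold linear spot intensity from Agilent Feature Extraction 11.0.1.1, design 026655, build mm9. The processed signal is background-subtracted by that software. A deposited table of the authors' log2 values was an alternative; its medians were 4.56 on both arrays, its values rose with the scanner signal with slopes of 0.99 and 1.01 on log2 signal, and the sources used here do not say how the authors normalized it.

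Here, log2 processed signal was scaled by the 75th percentile of non-control spots (100.2 and 89.1). Spots flagged as outliers were left out (190 and 167 of 43020), none was saturated, and spots of a probe were averaged. A probe was well above background when most of its spots were so marked, which held for 71.5% and 65.3% of probes. Where 1 array was not, its value was raised to the lowest value well above background there, so a fold is written "at least". Probes were named by accession through RefSeq (27206 of 39386 probes), and a gene was read at its brightest probe. The number of arrays limits the precision. On simulated data with spot error alone, 100.0% of genes changed by 1.5 or 3 on the log2 scale passed the 2-fold limit. So did 0.057% of 13950 unchanged genes. Changes of that size exceed the limit by more than a typical spot error, so this outcome was largely fixed in advance. The simulation left out variation between mice and pools, so 0.057% is no rate of false calls for the 2-fold rule here. Alternatives used limma 3.58.1 in R 4.3.3 and pandas 2.3.3. The naming rule took the 7 members with all probes, Sirpa, and in each list those at least 2-fold apart or else the 2 brightest. Other genes were named outside this rule, after their values were seen. Among these were C1qa, C1qb, Cd163, Adgre1, Trim21 and Fcer2a. Members, lists and rules were chosen with earlier results of these data known. No gene was ranked by likeness of pattern, since 2 arrays give 1 difference. Some genes of the lists and regions counted are not reported here by name.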

Additional observations from a re-analysis of the deposited data

How the results depend on the processing

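No result has a replicate check, no array was left out, and signal near background limits what can be read of dim probes, such as those of Fcamr, Lyn and Hdc. No paired analysis was possible because each genotype has 1 array. The planned normexp on mean signals was not run, since the scanner columns used here hold median signals; normexp on these, and both alternatives on flagged spots, were chosen after the data were seen. Normexp adds an offset of 50, which shrinks differences of dim probes by construction.

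The count of Fc receptor genes at least 2-fold higher, 1, was 0 at 3-fold and 0 after normexp; the count lower, 0, was 2 at 1.5-fold (Fcgr3 and Fcgr4). After normexp the Fcgr1 difference minus that of Fcgr2b was 1.15 and that of Fcer1g minus Fcgr2b was -0.39; in the other 10 alternatives both moved by less than their spot error, as Fcgr3 and Fcgr4 minus Fcgr2b did in all 11, from -0.25 to -0.14 and from -0.54 to -0.20. Fcer1g minus Fcgr2b ran from -0.39 to 0.21, across 0. Constant scaling and the settings on the choice of probe and on dim probes could not move these differences between genes.

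In the activating signalling list the count higher, 0, was 3 at 1.5-fold; the count lower, 2, was 1 after cyclic loess, 4 without scaling, 1 with the percentile over probes detected on both arrays, 5 at 1.5-fold, 1 at 3-fold and 1 after normexp, which moved the median to -0.028. In the inhibitory list the count higher, 2, was 1 without scaling, 0 at 3-fold and 0 after normexp, and the count lower, 0, was 1 at 1.5-fold. Among adaptor chains and paired receptors the count higher, 0, was 1 after quantile normalization, 1 in the authors' values and 1 at 1.5-fold; the count lower, 2, was 1 at 3-fold and 1 after normexp. Among other immunoglobulin-binding receptors the count lower, 0, was 2 at 1.5-fold.

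Over all measured genes the count higher, 493, was 306 without scaling, 104 after normexp and 879 when dim probes were kept; limits of 1.5-fold and 3-fold gave 1806 and 105. For genes lower, 865 in number, keeping dim probes gave 1657 and those limits gave 2096 and 374. Cr2 of the B cell list turned to 0.31 at its dimmest measured probe, a different probe.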
